A study of Homo sapiens with 12 samples.

Results

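COL1A1 and SMAD4 mRNA were followed in LX-2 cells, a line derived from activated human hepatic stellate cells (HSC), that had received a mimic of either miR-25 or a control sequence. Both genes were taken by name from the nCounter Dx Stem Cell Panel, on which they are 2 of 199 genes (probes NM_000088.3 for COL1A1 and NM_005359.3 for SMAD4), and both were followed in all 12 samples. All cells were the same line in 2% serum; the control groups received a mimic based on a nematode miRNA, the miR-25 groups received the miR-25 mimic, each at 10 pmol/ml with Lipofectamine LTX, and RNA was taken at 24 h or 48 h. Each time point had 3 transfections of its own (replicates 1, 2 and 3), each with 1 control and 1 miR-25 sample, so that the 12 samples form 6 pairs and each of the 4 groups holds 3 samples. The cells are a single line with no other liver cell type, the labels name no added cytokine, and no untransfected sample is among the 12. In the nCounter assay a pair of probes binds each transcript and fluorescent barcodes are counted without amplification, so that a count is a count of hybridised molecules.

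COL1A1 encodes the alpha 1 chain of type I collagen, the main fibrillar collagen that activated HSC deposit in the fibrotic liver. SMAD4 is the common partner that the receptor-activated SMAD proteins bind before they enter the nucleus, and SMAD complexes with SMAD4 drive collagen transcription when TGF-beta, the main fibrogenic cytokine of the liver, binds its receptors. A miRNA lowers the mRNA or protein of its targets by pairing, mainly through its seed, with sites that lie mostly in the 3′ untranslated region, and a mimic raises the level of that miRNA in the cell.

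The mature miRNA that the mimic copies is shown because the miR-25 samples held more of it, and so of its seed, than the control samples. It is encoded on the minus strand at chr7:100093571-100093592 (GRCh38.p14, RefSeq) by the MIR25 gene, and bases 2 to 8, the seed, are in capitals.
hsa-miR-25-3p: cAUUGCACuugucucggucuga

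The labels give a transfection efficiency. By the study's methods it is the share of cells positive for a fluorescent control miRNA in a parallel well of the same plate. It was 0.59, 0.75 and 0.81 in replicates 1, 2 and 3 at 24 h and 0.42, 0.61 and 0.65 at 48 h. The labelled level of miR-25 relative to the control sample was 62.34, 192.53 and 350.13 at 24 h and 347.45, 482.36 and 681.22 at 48 h. The total count over the panel genes was 321243 to 409581 (median 378382) per sample at 24 h and 107377 to 200821 (median 157184) at 48 h. Per count of the positive control probes, which were added to each reaction, the panel total was 4.02 to 5.20 at 24 h and 1.92 to 3.79 at 48 h. Depth, the separate transfections and the time point cannot be told apart. Beside COL1A1, the mesenchymal markers CDH2 (1502 to 7246 counts) and CD44 (1683 to 7929 counts) were above background in 12 of 12 samples, and NCAM1 was in 5. Among 12 markers of other lineages, POU5F1 exceeded background in every sample (9 to 54 counts), 6 did so in part of the samples, CD4 in 11 and NANOG in 8 among them, 5 never did, and their summed level was 31.0 to 47.9 per 100000 gene counts at 24 h and 32.6 to 56.8 at 48 h. ACTA2, DES and PDGFRB, which are more specific to stellate cells, were not among the genes analysed here.

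The 48 h replicate 1 stood apart from the other transfections in both of its samples. Among the 136 genes whose mean reached 20 counts, the median distance of replicate 1 from the mean of replicates 2 and 3 was 0.13 on the log2 scale at 24 h and 0.35 at 48 h. CXCL12, a chemokine, was at 335 and 208 per 100000 gene counts in the control and miR-25 sample of this transfection, against 2976 to 3263 in the other 48 h samples. ZIC2, a zinc-finger transcription factor, was at 71.7 and 65.7 against 2.52 to 4.48. This transfection also had the lowest efficiency, and its control sample had the lowest panel total of all samples. Values that rest on it are therefore also given without it.

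COL1A1 was abundant in every sample. Its mean over the 12 samples was 3079 counts (795 to 4644), which placed it at rank 19 of 199 genes by count, and in each sample it was at least 107 times the background level (2 SD over the mean of its negative control probes). SMAD4 had a mean of 1245 counts (418 to 1903), rank 41 by count, and was at least 56.8 times the background level in each sample. Levels are given below per 100000 counts over all panel genes of the sample, which sets each gene against the panel and not against the number of cells; in RNA from whole cultures, fewer cells of a kind and less RNA per cell cannot be told apart. Counts of the 2 genes are not set against each other as levels, since each has its own probe.

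At 24 h COL1A1 was at nearly the same level in all samples. In the control samples of replicates 1, 2 and 3 it was at 1053, 1048 and 1091 per 100000 (mean 1064 ± 23.2, SD, n = 3). In the miR-25 samples it was at 1134, 1031 and 1074 (mean 1080 ± 51.8, SD, n = 3). The 2 groups overlapped, and the coefficient of variation was 2.18% and 4.80%, against a median of 7.27% and 6.46% over the 136 genes and 1.63% and 1.55% from counting alone.

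At 48 h the COL1A1 level depended on the transfection. The control samples of replicates 1, 2 and 3 were at 740, 1448 and 1857 per 100000 (mean 1349 ± 565, SD, n = 3). The miR-25 samples were at 540, 1549 and 1719 (mean 1269 ± 637, SD, n = 3). Replicate 1 was below every 24 h sample and replicates 2 and 3 were above every 24 h sample, in control and miR-25 samples alike, while the 48 h groups overlapped each other. The coefficient of variation was 41.9% and 50.2%, rank 17 and rank 10 of 136 genes from the widest, against medians of 15.5% and 15.1% and a counting error of 2.61% and 2.51%. Over replicates 2 and 3 alone it was 17.5% and 7.37%. From the lowest to the highest of the 12 samples COL1A1 spanned 3.44-fold, rank 16 of 136.

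SMAD4 varied less. In the 24 h control samples it was at 463, 488 and 505 per 100000 (mean 485 ± 21.1, SD, n = 3), and in the 24 h miR-25 samples at 465, 482 and 482 (mean 476 ± 10.1, SD, n = 3). In the 48 h control samples it was at 389, 475 and 480 (mean 448 ± 50.9, SD, n = 3), and in the 48 h miR-25 samples at 355, 494 and 457 (mean 435 ± 71.8, SD, n = 3). Both samples of 48 h replicate 1 were the lowest of the 12, and the other 10 samples lay between 457 and 505 with all groups overlapping. The span over the 12 samples was 1.42-fold, rank 107 of 136 genes. The coefficients of variation at 48 h, 11.4% in control and 16.5% in miR-25 samples, ranked 93 and 64, and over replicates 2 and 3 alone they were 0.823% and 5.59%.

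**Figure D1:**
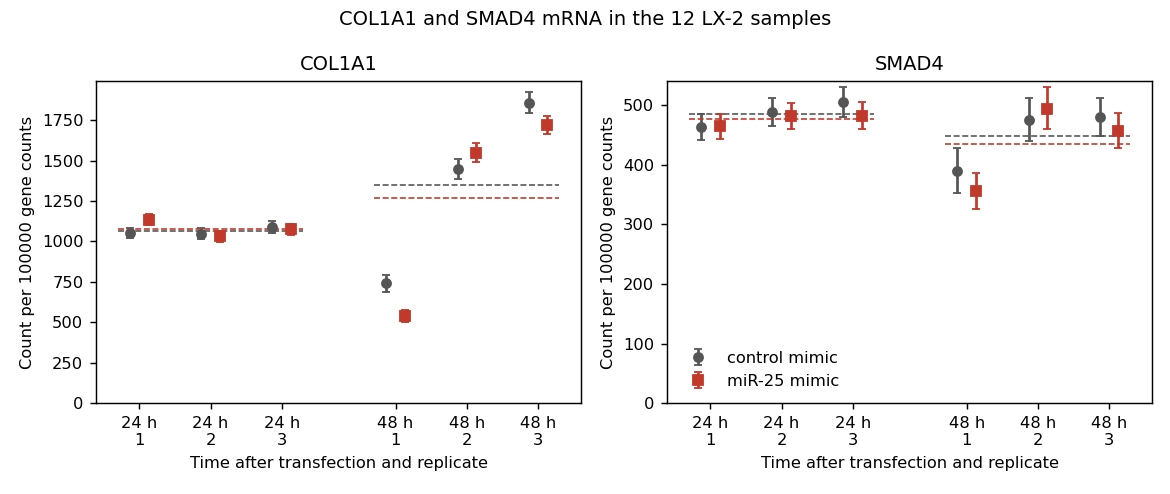
Count of COL1A1 (left) and SMAD4 (right) per 100000 panel gene counts (vertical axes, each from 0) in the control (grey circles) and miR-25 (red squares) sample of each transfection; bars are 95% intervals of counting error and dashed lines are group means of 3 samples. COL1A1 lay between 1031 and 1134 at 24 h and between 540 and 1857 at 48 h, with replicate 1 lowest, while SMAD4 stayed between 355 and 505.

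The first question was whether miR-25 changed either mRNA. No change of COL1A1 or SMAD4 between miR-25 and control samples passed the test at 24 h, at 48 h or over both. Within pairs, the ratio of miR-25 to control was close to 1 for SMAD4 in all 6 transfections, and for COL1A1 it left 1 by more than counting error in 4 of 6, up in 2 and down in 2.

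At 24 h the COL1A1 ratio of miR-25 to control was 1.08 (95% interval 1.03 to 1.12) in replicate 1, 0.983 (0.940 to 1.03) in replicate 2 and 0.985 (0.941 to 1.03) in replicate 3. Only the first excluded 1, and these exact binomial intervals cover counting error only. At 48 h the ratio was 0.730 (0.661 to 0.805) in replicate 1, 1.07 (1.01 to 1.13) in replicate 2 and 0.925 (0.882 to 0.971) in replicate 3. All 3 intervals excluded 1, but not on the same side. The mean ratio was 1.01 ± 0.0534 (SD, n = 3) at 24 h and 0.908 ± 0.171 (SD, n = 3) at 48 h, so the distance from 1 was within the spread between transfections at both times. Without replicate 1 the 48 h mean was 0.998 ± 0.102 (SD, n = 2).

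For SMAD4 the ratio at 24 h was 1.00 (0.941 to 1.07), 0.988 (0.925 to 1.06) and 0.954 (0.892 to 1.0215) in replicates 1, 2 and 3. At 48 h it was 0.913 (0.802 to 1.04), 1.04 (0.938 to 1.16) and 0.951 (0.866 to 1.04). Every interval included 1. The mean was 0.982 ± 0.0250 (SD, n = 3) at 24 h and 0.968 ± 0.0660 (SD, n = 3) at 48 h, or 0.996 ± 0.0639 (SD, n = 2) without replicate 1. Scaled to the positive control probes, the ratios at 48 h were 1.00, 1.33 and 0.983 for COL1A1 and 1.25, 1.30 and 1.01 for SMAD4. On that scale the median log2 fold change of all 136 genes at 48 h was 0.27, against -0.01 with the panel total, and both genes lay below that median at 0.13 and 0.23.

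**Figure D2:**
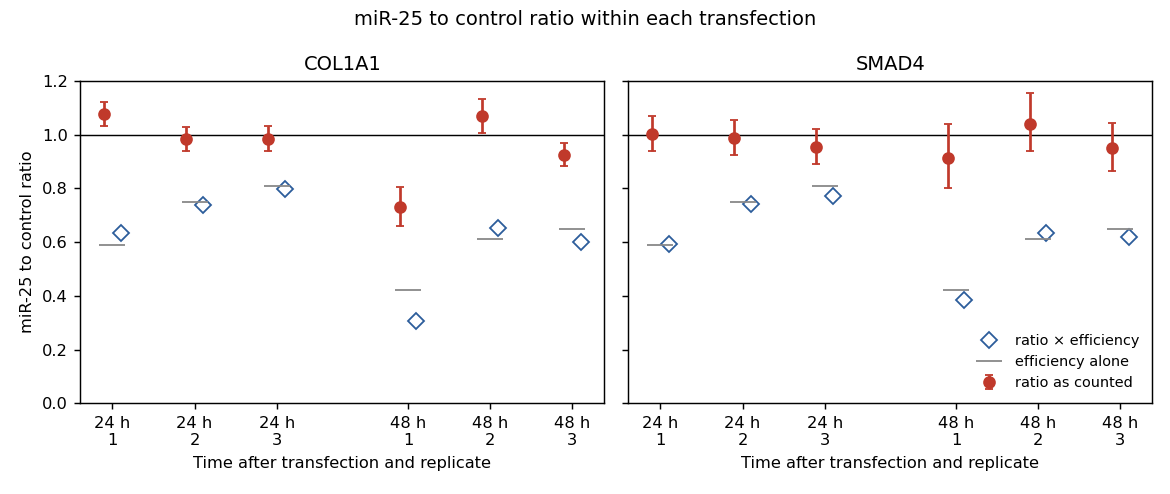
Ratio of the miR-25 to the control level of COL1A1 (left) and SMAD4 (right) in each transfection (red circles, 95% interval of counting error), the same ratio multiplied by the transfection efficiency (blue diamonds) and the efficiency itself (grey dashes). The counted ratios lay on both sides of 1, from 0.730 to 1.08 for COL1A1 and from 0.913 to 1.04 for SMAD4, and the multiplied values lay below 1, from 0.306 to 0.798.

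The counts of the 136 genes were put to edgeR's quasi-likelihood test with each transfection pair as a block, with Benjamini-Hochberg adjustment over all of them. At 24 h, where 0% of the genes had an adjusted p under 0.05 (0 genes by edgeR, DESeq2 or limma, and 9 at an unadjusted p under 0.05 by edgeR; 2.21% without 48 h replicate 1), the log2 fold change of miR-25 over control was 0.02 ± 0.064 (SE) for COL1A1, with an adjusted p of 0.957 by edgeR. For SMAD4 it was -0.03 ± 0.045, with an adjusted p of 0.957. The 95% interval of the change was 0.923- to 1.12-fold for COL1A1 and 0.919- to 1.05-fold for SMAD4. At 48 h, where 0.735% of the genes passed, it was -0.12 ± 0.070 for COL1A1 (adjusted p = 0.532, edgeR; interval on the log2 scale -0.27 to 0.03) and -0.04 ± 0.054 for SMAD4 (adjusted p = 0.734, edgeR; 0.895- to 1.05-fold). The COL1A1 value at 48 h was set by single transfections: it was -0.02 ± 0.040 without 48 h replicate 1 (adjusted p = 0.879, edgeR) and -0.25 ± 0.071 without 48 h replicate 2 (adjusted p = 0.129, edgeR). Without 48 h replicate 1 the SMAD4 value was -0.01 ± 0.060 (adjusted p = 0.918, edgeR). At 24 h the COL1A1 value took the other sign without 24 h replicate 1, at -0.023. Genes called at 48 h were 1 with all samples, 2 without 48 h replicate 3 and 0 without 24 h replicate 3, and at 24 h 3 without 48 h replicate 1. These p-values rest on a spread between transfections of 1 line, which edgeR draws in part from the other genes. Over the 3 pairs the log2 ratios of COL1A1 had an SD of 0.075 at 24 h and 0.28 at 48 h. The SE of 0.070 at 48 h is thus smaller than its own 3 pairs alone would give. In the miR-25 fits without 48 h replicate 1 edgeR went further and pooled 1 spread over all genes. Every gene then had 408 degrees of freedom at either time and 544 over both times. The SE of COL1A1 at 24 h was 0.030 there, against 0.064 with all samples. Those SEs, p-values and calls hold little of a gene's own spread between transfections.

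Over both time points, where 0% of the genes passed (0 by edgeR, with 21 at an unadjusted p under 0.05; 2.94% without 48 h replicate 1, 2.21% higher), the change was -0.05 ± 0.049 for COL1A1 and -0.03 ± 0.035 for SMAD4 on the log2 scale, each with an adjusted p of 0.730 by edgeR. The intervals were 0.902- to 1.04-fold and 0.928- to 1.03-fold, and without 48 h replicate 1 the COL1A1 change was 0.0075, with 4 genes called. An exact two-sided sign-flip permutation test over the 6 pairs, whose smallest p is 0.03125, gave p = 0.53125 for COL1A1 (mean log2 ratio -0.07 ± 0.21, SD) and p = 0.1875 for SMAD4 (-0.04 ± 0.067). Over the 5 pairs without 48 h replicate 1 the means were 0.0090 and -0.019 (exact permutation p = 1 and 0.375). Ratios were below 1 in 4 of 6 pairs for either gene. The test over the 6 pairs moved with the scaling. With TMM it gave -0.092 for COL1A1 (exact permutation p = 0.34375) and -0.061 for SMAD4 (exact permutation p = 0.0625). With the positive control probes it gave 0.11 for COL1A1 (exact permutation p = 0.09375) and 0.14 for SMAD4 (exact permutation p = 0.125). The effect of miR-25 did not pass as different between 48 h and 24 h, a comparison in which 0% of the genes passed (0 by edgeR, 8 at an unadjusted p under 0.05, 1 by DESeq2): the difference was -0.14 ± 0.095 for COL1A1 (adjusted p = 0.840, edgeR) and -0.02 ± 0.070 for SMAD4 (adjusted p = 0.974, edgeR). These differences were, with 48 h replicate 1 omitted, -0.04 ± 0.050 (adjusted p = 0.845, edgeR) and 0.01 ± 0.072 (adjusted p = 0.965, edgeR).

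The study corrects its ratios for transfection efficiency. By that procedure an average ratio more than 2% below 1 is multiplied by the efficiency, one more than 2% above 1 is divided by it, and one between is kept. The methods average the ratio over triplicates, of which each time point has 1 set, but do not state that the class is set at each time point. Both readings were therefore computed. With the class of each time point, both 24 h averages fell between the limits and were kept. At 48 h both were below, and multiplication gave COL1A1 ratios of 0.306, 0.652 and 0.602 (mean 0.520 ± 0.187, SD, n = 3) and SMAD4 ratios of 0.383, 0.635 and 0.618 (mean 0.546 ± 0.141, SD, n = 3). The efficiencies alone were 0.42, 0.61 and 0.65. Without replicate 1 the multiplied means at 48 h would be 0.627 for either gene, but the counted averages, 0.998 and 0.996, would then fall between the limits and be kept. Taking the class from 48 h for both times gave 24 h means of 0.723 ± 0.0822 for COL1A1 and 0.702 ± 0.0967 for SMAD4. When each ratio was treated instead as a mixture of transfected and untransfected cells, the means were 1.03 ± 0.0867 at 24 h and 0.785 ± 0.389 at 48 h for COL1A1 and 0.978 ± 0.0314 and 0.928 ± 0.138 for SMAD4; without replicate 1 both 48 h means were near 1, at 0.9997 ± 0.162 and 0.996 ± 0.101 (SD, n = 2).

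The second question was how the mRNA levels moved from 24 h to 48 h after transfection. COL1A1 was 1.55-fold higher in control and 1.51-fold higher in miR-25 samples in 48 h replicates 2 and 3 than the 24 h mean, and lower in 48 h replicate 1, at 0.696 and 0.50 of the 24 h mean. SMAD4 in replicates 2 and 3 was at 0.983 and 0.998 of the 24 h mean, and in replicate 1 at 0.802 and 0.746.

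With all samples, edgeR's quasi-likelihood test called 7 genes between 48 h and 24 h in control samples (5.15% of 136) and 10 in miR-25 samples (7.35%), and neither gene was among them. The log2 fold change of COL1A1 was 0.34 ± 0.294 (SE) in control samples (adjusted p = 0.438, edgeR; 0.786- to 2.05-fold) and 0.23 ± 0.381 in miR-25 samples (adjusted p = 0.690, edgeR; 0.631- to 2.19-fold). The COL1A1 value fell to 0.042 in control and -0.048 in miR-25 samples without 48 h replicate 3. That of SMAD4 was -0.11 ± 0.111 (adjusted p = 0.491, edgeR; 0.771- to 1.11-fold) and -0.13 ± 0.133 (adjusted p = 0.544, edgeR; 0.735- to 1.14-fold). The number of genes called also moved with other omissions: without 24 h replicate 1, 2 or 3 it was 2, 2 and 1 in control and 0 each time in miR-25 samples, without 48 h replicate 2 it was 1 in either, and without 48 h replicate 3 it was 8 and 2.

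Without 48 h replicate 1, with 3 samples at 24 h and 2 at 48 h, 54 genes passed in control samples (39.7%, of which 37 higher, 27.2%) and 62 in miR-25 samples (45.6%, of which 38 higher, 27.9%). COL1A1 then rose by 0.64 ± 0.094 on the log2 scale in control samples (adjusted p = 0.00092, edgeR; 1.34- to 1.80-fold) and by 0.60 ± 0.066 in miR-25 samples (adjusted p = 0.00018, edgeR; 1.37- to 1.68-fold). SMAD4 changed by -0.02 ± 0.077 (adjusted p = 0.842, edgeR; 0.872- to 1.11-fold) and -0.0040 ± 0.071 (adjusted p = 0.964, edgeR; 0.892- to 1.12-fold). The call of COL1A1 thus rests on the omission of 1 of 3 transfections. The 2 samples of each transfection are not independent, so an exact two-sided permutation test was made over transfections. With all 6 the difference was 0.15 for COL1A1 (exact permutation p = 0.9) and -0.13 for SMAD4 (exact permutation p = 0.4), with a smallest possible p of 0.1. The SMAD4 result depended on the scaling. It reached that smallest p with TMM (-0.16) and with the positive control probes (-0.82). It did not with 5 reference genes (-0.24, exact permutation p = 0.2) or with GAPDH left out of the total (-0.08, exact permutation p = 0.8). With 3 against 2 transfections it gave 0.61 for COL1A1 (exact permutation p = 0.1, the smallest it can give) and -0.01 for SMAD4 (exact permutation p = 0.7).

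These values are relative to the panel. Scaled to the positive control probes in place of the panel total, the median over all 136 genes was -0.64 in control and -0.46 in miR-25 samples, against 0.13 and 0.09 with the panel total, and COL1A1 took a negative sign, at -0.31 and -0.26. SMAD4 fell by 0.68 in miR-25 samples (adjusted p = 0.048, edgeR), where 36% of all genes were called lower, and was at -0.85 in control samples (adjusted p = 0.061, edgeR). Without 48 h replicate 1 COL1A1 was at 0.09 and 0.15 on that scale, against medians of -0.47 and -0.38, and SMAD4 fell by 0.46 in miR-25 samples (adjusted p = 0.010, edgeR), where 46.3% of all genes were called lower, and was at -0.60 in control samples (adjusted p = 0.138, edgeR). COL1A1 was above the median of all genes and SMAD4 below it under both scalings. A change of library size moves a gene and that median together, so the scalings give no separate support for these places. With all samples the sign of the COL1A1 change turned with the scaling.

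**Figure D3:**
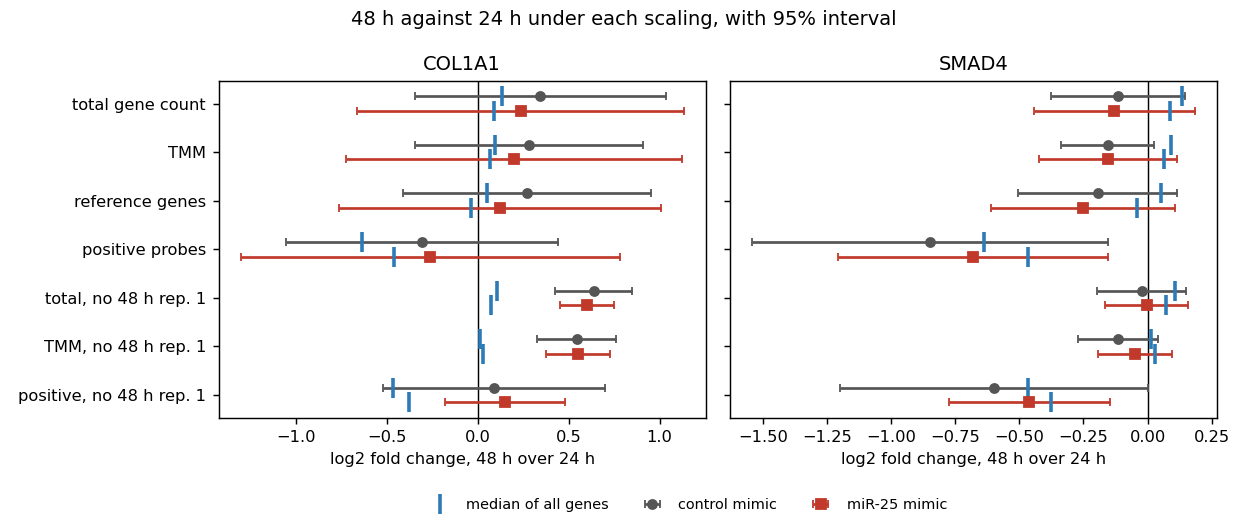
Log2 fold change of 48 h over 24 h for COL1A1 (left) and SMAD4 (right) in control (grey circles) and miR-25 (red squares) samples with the 95% interval of edgeR's fit, under each library size, with and without 48 h replicate 1; blue ticks are the median of all 136 genes. The COL1A1 interval clears 0 without replicate 1 under the panel total and TMM but not under the positive control probes, where the median of all genes is also lower.

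The count of COL1A1 over that of SMAD4 in the same sample needs no scaling. It was 2.14 to 2.44 over the 6 samples at 24 h (median 2.19). At 48 h it was 1.90 in the control and 1.52 in the miR-25 sample of replicate 1, 3.05 and 3.13 in replicate 2, and 3.87 and 3.76 in replicate 3. All 24 h samples were thus above the 48 h replicate 1 samples and below those of replicates 2 and 3.

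Replicate 1 at 48 h was compared with replicates 2 and 3 as a description, since it is 1 transfection against 2. COL1A1 was at 0.452 of their mean in the control sample and at 0.331 in the miR-25 sample, the ninth lowest by the mean of both log2 differences (rank 9 of 136). It was 1 of 16 genes (11.8%) more than 1.5-fold lower in both samples, and 9 genes (6.62%) were more than 1.5-fold higher in both. SMAD4 was at 0.816 and 0.748, rank 40, and not among them. At 24 h no gene was 1.5-fold away in both samples of replicate 1 (0%), with COL1A1 at 0.985 and 1.08 and SMAD4 at 0.933 and 0.964. Depth, transfection efficiency and the levels of CXCL12 and ZIC2 moved with these values, and their part was not tested.

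**Figure D4:**
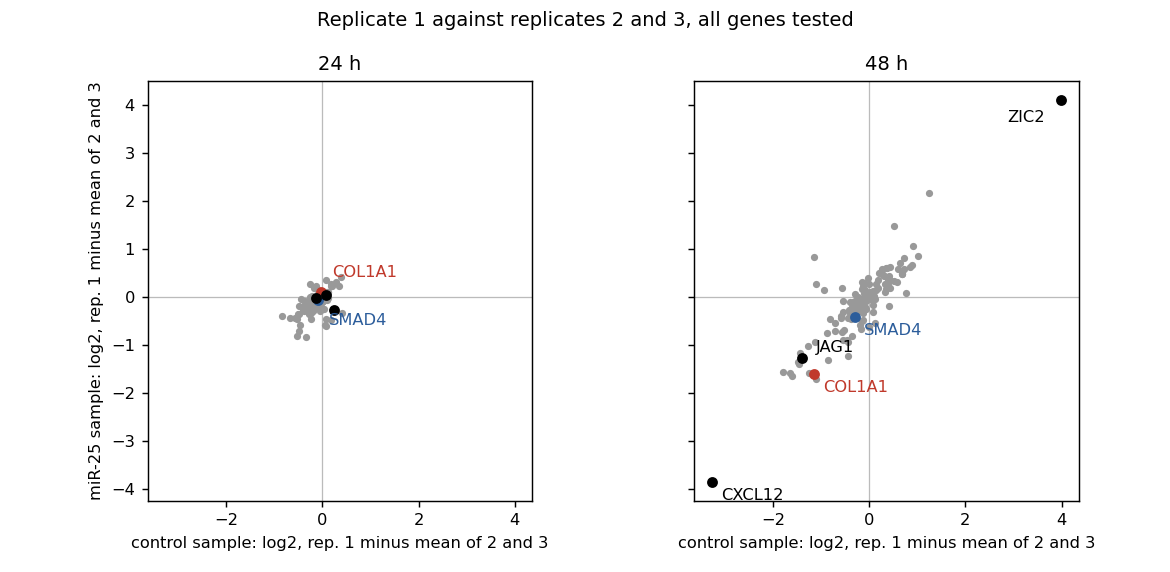
Log2 level of replicate 1 minus the mean of replicates 2 and 3 in control samples (horizontal) and miR-25 samples (vertical) for the 136 genes at 24 h (left) and 48 h (right), with grey lines at 0. At 48 h COL1A1 lies at -1.15 and -1.59 and SMAD4 at -0.29 and -0.42, with CXCL12 and ZIC2 at the ends of the cloud, whereas at 24 h both genes lie near 0.

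Genes whose level ran most like that of the 2 genes were taken by Pearson's r of the log2 level over the 12 samples, which share transfections in pairs and include the 48 h replicate 1 samples at one end. For COL1A1 these were JAG1, a Notch ligand (r = 0.962), NCSTN, a subunit of gamma-secretase (0.95), and GUSB, a reference gene (0.937). JAG1 was at 106 and 113 per 100000 in 48 h replicate 1, against 250 to 297 in the other 48 h samples and 187 to 198 at 24 h, so it too was low in replicate 1 and high in the others. The lowest were ZIC2 (-0.95) and the reference gene HPRT1 (-0.935). With the mean of each time point subtracted the highest were CXCL12 (0.979), JAG1 (0.965) and NCSTN (0.958). Over the 10 samples without 48 h replicate 1, r was 0.979 for JAG1, 0.921 for NCSTN, 0.881 for GUSB, -0.923 for ZIC2 and -0.833 for HPRT1. With time point means subtracted it was -0.0073 for CXCL12, 0.742 for JAG1 and 0.164 for NCSTN over these 10, so the likeness of COL1A1 to CXCL12 and NCSTN within time points rested on 48 h replicate 1.

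For SMAD4 the highest were CXCL12 (0.966), the kinase PRKX (0.962) and the kinase MAPK9 (0.942), which encodes JNK2. MAPK9 was at 183 and 203 per 100000 in 48 h replicate 1 and at 495 to 532 in the other 48 h samples. The lowest were PSENEN, another gamma-secretase subunit (-0.920), and the kinases PRKD1 (-0.878) and PRKACA (-0.876). With time point means subtracted the highest were PRKX (0.966), GUSB (0.959) and CXCL12 (0.957). Between COL1A1 and SMAD4 themselves r was 0.740 over the 12 samples and 0.928 with time point means subtracted, but -0.20 and -0.18 over the 10 samples without 48 h replicate 1. Over these 10, r with SMAD4 was 0.612 for CXCL12, 0.519 for PRKX and 0.511 for MAPK9, and -0.342, -0.118 and -0.196 for PSENEN, PRKD1 and PRKACA. With time point means subtracted it was 0.572 for PRKX, 0.832 for GUSB and 0.601 for CXCL12.

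The panel holds 15 other genes that act with TGF-beta signals or matrix, listed by role, of which 10 had enough counts to be tested. The ligands BMP2, BMP3 and GDF3 had means of 6.50, 6.08 and 5.50 counts and were above background in 1 of 12 samples each. COL2A1, the cartilage collagen, had a mean of 9.67 counts, and PPARG, a nuclear receptor of quiescent HSC, a mean of 5.75. These 5 genes were not tested.

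None of the 10 passed for miR-25 against control at 24 h or at 48 h, where 0% and 0.735% of all genes passed. At 24 h the median log2 fold change of the list, COL1A1 and SMAD4 included, was 0.04, against 0.03 over all 136 genes, with 8 of 12 positive in the list and 96 of 136 over all genes. At 48 h it was -0.06 against -0.01, with 10 of 12 negative in the list and 76 of 136 over all genes, and without 48 h replicate 1 it was -0.05 against -0.01. The values farthest from 0 at 48 h were those of PLAU, the urokinase that starts matrix breakdown, at -0.39 ± 0.103 (adjusted p = 0.120, edgeR) and CD44, the hyaluronan receptor, at -0.16 ± 0.046 (adjusted p = 0.120, edgeR). Without 48 h replicate 1 they were -0.16 ± 0.064 (adjusted p = 0.321, edgeR) and -0.09 ± 0.042 (adjusted p = 0.617, edgeR), and EP300 was at -0.14 ± 0.105 (adjusted p = 0.785, edgeR).

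From 24 h to 48 h with all samples, 2 of the 10 rose in control samples and 1 in miR-25 samples, while 2.94% of all genes were called higher in each. FURIN, the convertase that cleaves the TGF-beta precursor, rose by 1.11 ± 0.114 on the log2 scale in control (adjusted p = 0.0028, edgeR) and 1.08 ± 0.124 in miR-25 samples (adjusted p = 0.0066, edgeR). BMP1, the proteinase that trims the C-terminal end of procollagen, rose by 0.48 ± 0.099 in control samples (adjusted p = 0.033, edgeR) and was at 0.35 ± 0.149 in miR-25 samples (adjusted p = 0.157, edgeR). The FURIN call in control samples held without each transfection in turn, and that in miR-25 samples was lost without 24 h replicate 1, 2 or 3 (adjusted p = 0.072, 0.058 and 0.084, edgeR). Scaled to the positive control probes, 0% of the genes were called higher in control samples, so the FURIN call there was lost. With replicate number as a block both FURIN calls were lost, since 0 genes passed in either treatment. The BMP1 call was lost without any transfection other than 48 h replicate 1 (adjusted p = 0.073 to 0.22, edgeR), and BMP1 was at -0.26 when scaled to the positive control probes. The median of the list was 0.09 in either treatment, against 0.13 and 0.09 over all genes.

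Without 48 h replicate 1, 3 of the 10 rose and 1 fell in control samples, where 27.2% of all genes were called higher and 12.5% lower. In miR-25 samples 2 rose and 3 fell, where 27.9% of all genes were called higher and 17.6% lower. In either direction 39.7% and 45.6% of all genes passed. FURIN (1.15 and 1.00) and BMP1 (0.53 and 0.50) rose in both treatments, as COL1A1 did. PLAU rose in control samples (0.39 ± 0.122, adjusted p = 0.035, edgeR) and was at 0.16 ± 0.098 in miR-25 samples (adjusted p = 0.199, edgeR). CD44 fell by 0.60 and 0.68. The co-activator EP300, which acetylates histones with SMAD complexes, fell by 0.61 ± 0.15 in miR-25 samples (adjusted p = 0.0095, edgeR) and was at -0.43 ± 0.179 in control samples (adjusted p = 0.077, edgeR). JUN, a subunit of AP-1, fell by 0.31 ± 0.064 in miR-25 samples (adjusted p = 0.0045, edgeR) and was at -0.19 ± 0.093 in control samples (adjusted p = 0.124, edgeR). The change with time did not pass as different between the treatments for PLAU (-0.22 ± 0.077, adjusted p = 0.279, edgeR), EP300 (-0.18 ± 0.118, adjusted p = 0.836) or JUN (-0.12 ± 0.066, adjusted p = 0.836), with 0% of all genes passing (0 by edgeR, with 8 at an unadjusted p under 0.05). The relay kinase MAP3K7 (0.17 and 0.14), its partner MAP3K7IP1 (0.34 and 0.03), the co-activators CREBBP (-0.28 and -0.47) and SNW1 (0.06 and 0.16) and SMAD4 itself did not pass in either treatment. Scaled to the positive control probes, without 48 h replicate 1, FURIN was at 0.57 and 0.54, BMP1 at -0.04 and 0.05 and PLAU at -0.22 and -0.31. The list median with the panel total was 0.12 and 0.09, against 0.11 and 0.07 over all genes.

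**Figure D5:**
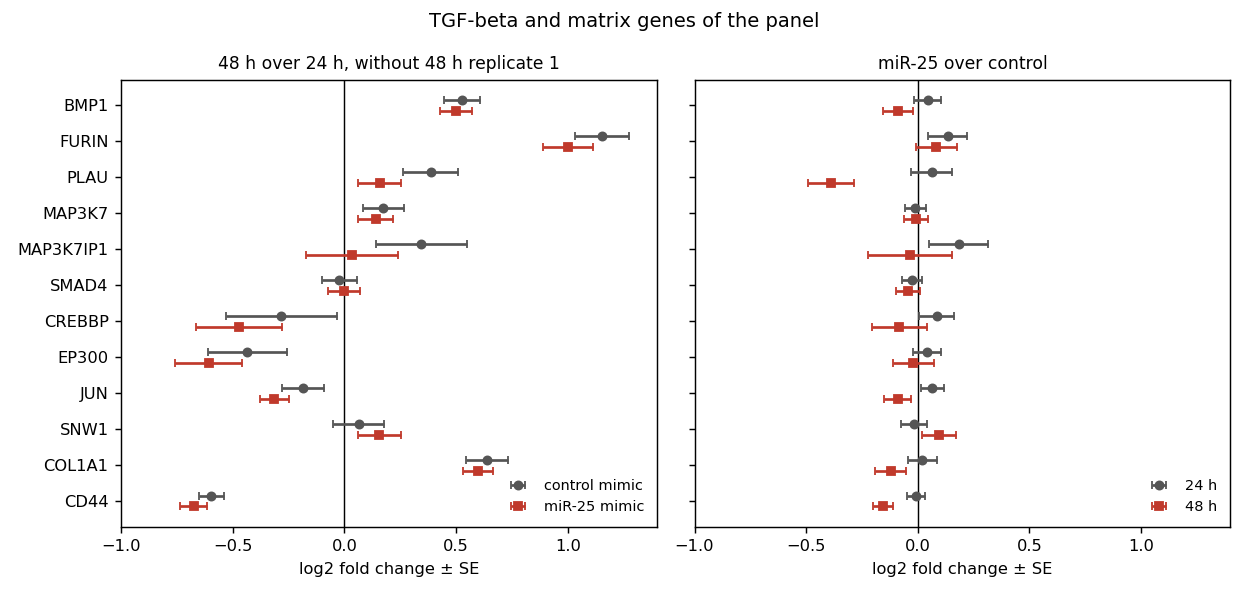
Log2 fold change of the 12 tested TGF-beta and matrix genes, with an SE computed from the F value of edgeR's test. Left, 48 h over 24 h without 48 h replicate 1 in control (grey circles) and miR-25 samples (red squares). Right, miR-25 over control at 24 h (grey circles) and 48 h (red squares). BMP1, FURIN and COL1A1 lie above 0 and CD44 below it in both treatments on the left, and on the right no gene passed the test.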

How the data were processed

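RNA of 12 LX-2 samples was hybridised to the nCounter Dx Stem Cell Panel, and samples were grouped by their labels. The authors deposited raw counts per probe, without background correction or scaling. Names came from the study's panel sheet for 193 identifiers and from RefSeq (GRCh38.p14) for 6. The quasi-likelihood test of edgeR 4.0.16 in R 4.3.3 was applied after a filter of a mean of at least 20 counts. The panel total was the library size. All 12 samples were in 1 fit for miR-25, and the 6 of 1 treatment were in each fit for time. The fits were also run on simulated data. No outcome of those runs is given here, so they lend no weight to any call, including those between 48 h and 24 h. The transfection pair was a block because the study takes ratios within replicates, and both samples of a pair deviated together from their group means (r = 0.282 to 0.888 over 6 pairs). No 2 samples of a group agreed within sampling noise (chi-square per degree of freedom 2.52 to 73.1). DESeq2 1.42.0, limma 3.58.1 (pseudocount 1), TMM, 5 reference genes (GAPDH, CLTC, TUBB, GUSB and HPRT1), positive control probes, background subtraction, other filters, no GAPDH, other blocks, 1 time point alone and leaving out each transfection were alternatives. Correlations used log2 of the level plus 0.5. Genes named were COL1A1, SMAD4, the TGF-beta and matrix list, the 3 most like and 3 least like each gene (1 of these is not reported here), and the reference genes. Members and lists were chosen with earlier results of these data known. Python 3.11.15, numpy 2.4.6, pandas 2.3.3, scipy 1.17.1 and matplotlib 3.10.9 were used.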

Additional observations from a re-analysis of the deposited data

How the results depend on the processing

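No setting made COL1A1 or SMAD4 pass for miR-25 against control, while signs of these small changes turned. At 24 h COL1A1 was -0.011 with TMM (with or without 48 h replicate 1) and -0.019 with DESeq2, and SMAD4 0.039 with positive probes; at 48 h positive probes gave 0.13 and 0.23, over both times 0.11 and 0.13 (exact test over pairs 0.11 and 0.14), and for the difference 0.049 and 0.20. Without 48 h replicate 1 the exact value of COL1A1 over pairs was 0.0090. The SMAD4 difference was 0.0027 with TMM, 0.014 with DESeq2, 0.0053 without GAPDH and 0.048 with TMM without 48 h replicate 1. Genes called at 24 h were 3 with that time alone; at 48 h, 51 with positive probes, 3 with no filter or that time alone, and 0 with reference genes, no replicate block or TMM without 48 h replicate 1; over both, 32 with positive probes and 1 with TMM without 48 h replicate 1; for the difference, 1 with TMM, positive probes, DESeq2, no filter, no GAPDH or TMM without 48 h replicate 1. For 48 h against 24 h in control samples, calls were 26 (positive probes), 22 (DESeq2), 0 (replicate block), 60 (TMM without 48 h replicate 1) and 21 (positive probes without it); in miR-25 samples 50, 33, 0, 70 and 69, with 17 for TMM and 6 without the filter. Both time points use the same replicate names, and the labels do not state whether transfections of the same name belong together. With replicate number as a block COL1A1 was 0.25 and 0.08. With TMM without 48 h replicate 1 it was 0.54 and 0.55 and passed. With positive probes it was -0.31 and -0.26 (transfections -0.54). SMAD4 with positive probes was -0.68 in miR-25 samples (-0.46 without 48 h replicate 1) and -0.82 over transfections. For 48 h replicate 1 against 2 and 3, TMM gave -0.98 and -1.47 (COL1A1) and -0.13 and -0.30 (SMAD4), positive probes -1.76, -1.96, -0.91 and -0.78. Efficiency gave mean ratios of 0.520 and 0.546 at 48 h, or 0.723 and 0.702 at 24 h with the 48 h class. Leaving out each transfection in turn gave, for COL1A1, SMAD4 and calls, -0.023 to 0.043, -0.04 to -0.01 and 0 to 3 (24 h), -0.25 to -0.02, -0.10 to -0.01 and 0 to 2 (48 h), -0.082 to 0.0075, -0.05 to -0.02 and 0 to 4 (both), -0.27 to -0.04, -0.071 to 0.014 and 0 (difference), 0.042 to 0.64, -0.17 to -0.02 and 1 to 54 (time, control), and -0.048 to 0.60, -0.23 to -0.0040 and 0 to 62 (time, miR-25). Settings that combine TMM or positive probes with the omission of 48 h replicate 1, the exact tests, mean ratios, spreads and correlations without it and the class from 48 h were chosen after seeing the data. The cause of these shifts was not tested. For COL1A1 and SMAD4 at 48 h counting error (2.51% to 4.09%) was below the spread between transfections (11.4% to 50.2%).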
